A study of Mus musculus with 24 samples.

Results

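The transcripts of the cytosolic ribosomal proteins were followed in crypts of the mouse jejunum after induced loss of Nle1, of Apc or of both. The set holds every row of the authors' estimated-count table whose symbol is Rpl or Rps followed by a number and an optional a or x, together with Rplp0, Rplp1, Rplp2 and Rpsa, provided that the row had a mean of at least 10 estimated counts over the 24 libraries. It has 77 members of 37620 rows, 46 of the large and 31 of the small ribosomal subunit, and the minimum removed none, since the lowest mean was 367.4 estimated counts (Rps13). Together the members took 2.91 to 6.17% of the estimated counts of a library. The study comprised 8 groups of 3 mice: Control, NlecKO (conditional knockout of Nle1), ApccKO (conditional knockout of Apc) and ApccKO;NlecKO (both), each taken on day 1 and on day 2. By the series title these days are 24 h and 48 h after induction. All mice, the Control ones included, came from a protocol of intraperitoneal tamoxifen at 56 mg/kg on 3 consecutive days, begun at 5 to 10 weeks of age, and crypts were isolated from 5 to 10 cm of jejunum. The sources used here name no Cre driver, no position of the deletions and no alleles for the Control mice.

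A cytosolic ribosome has a small subunit, which reads the mRNA, and a large subunit, which joins amino acids and releases the chain through a tunnel. Cells make the proteins of both subunits in matched amounts, and most of their mRNAs begin with a cytosine followed by a run of pyrimidines (a TOP tract), through which mTOR signalling controls their translation. Nle1 encodes Notchless, an assembly factor that the large subunit needs on its way from nucleolus to cytoplasm. Apc restrains Wnt signalling, which maintains the dividing cells of the crypt. Its loss activates the pathway, one of whose targets is Myc, a driver of ribosome production.

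The promoters are shown first because the shared start of these mRNAs is the feature that the choice of members did not use. Start sites in RefSeq (GRCm38.p6) were found for 59 of the 77 members. A run of at least 5 pyrimidines that opens with C and begins within 10 bases of a listed start was found in 36 of these 59 (61.0%) and in 34.4% of 27025 genes with a listed start. The share was 60% (21 of 35) in the large and 62.5% (15 of 24) in the small subunit. In the window from 250 bases before to 50 bases after the start, read on both strands, CCGGAAG was found in 42.4% of the members and 9.9% of all genes, AAGATGGCG in 5.1% and 1.6%, CACGTG in 10.2% and 8.1%, and TATAAA in 10.2% and 15.7%. These are matches of letters, not shown sites. Windows of 60 bases before and 20 after the start follow for Rps6 at chr4:86857348-86857427, Rps12 at chr10:23787190-23787269 and Rps27 at chr3:90213629-90213708, all on the minus strand. Beside them stands Rpl22l1, a paralogue of Rpl22 that fell in all 4 Nle1 comparisons, at chr3:28805448-28805527 on the plus strand. Rpl11, at chr4:136053374-136053453 on the minus strand, stands for the members with no such run at the listed start. Its window ends in pyrimidines (tctccct) past the 10-base limit, which were not counted. Members without a counted run may thus have a tract farther from the listed start. Capitals mark the pyrimidine run.
Rps6: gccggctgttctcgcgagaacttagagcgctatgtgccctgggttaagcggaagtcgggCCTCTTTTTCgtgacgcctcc
Rps12: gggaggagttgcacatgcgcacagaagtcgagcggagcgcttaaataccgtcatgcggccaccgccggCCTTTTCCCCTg
Rps27: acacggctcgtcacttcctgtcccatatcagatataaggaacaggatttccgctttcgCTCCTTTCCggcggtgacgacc
Rpl22l1: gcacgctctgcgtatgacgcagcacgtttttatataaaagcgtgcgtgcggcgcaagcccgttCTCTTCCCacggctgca
Rpl11: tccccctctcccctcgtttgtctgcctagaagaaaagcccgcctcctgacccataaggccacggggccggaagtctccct

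The libraries held 17860000 to 26470000 estimated counts (median 19820000). Levels below are counts scaled to a common library size by the TMM method (CPM), and differences are log2 fold changes with their standard error from 1 edgeR quasi-likelihood fit over all 24 libraries, with p-values adjusted by Benjamini-Hochberg over 16552 genes and a threshold of 0.05. Nle1 measured 20.1 to 27.9 CPM in the 6 Control libraries and 4.81 to 7.3 CPM in the 6 NlecKO libraries, and 34.2 to 39.9 CPM in ApccKO against 7.79 to 12.3 CPM in ApccKO;NlecKO. Its level thus followed the labels in all 24 libraries. Apc mRNA lay at 112 to 158 CPM in every library and passed the test in none of the comparisons of 1 genotype change, so that the transcript level gives no check of the Apc deletion. The 8 markers of crypt epithelium summed to 6370 to 12300 CPM over the libraries and the 6 markers of crypt base stem cells to 1200 to 7240 CPM, so that the labelled tissue was present in each. The animal codes in the labels place the 12 libraries with Apc lost in 1 continuous run, so Apc loss and anything else that followed those codes cannot be told apart. In whole crypts, fewer cells of a type and less RNA per cell cannot be told apart either.

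Both subunits moved together, and their transcripts were highest when Apc and Nle1 were both lost. For each library the log2 level of every member was taken relative to its mean in Control libraries of both days, and the median over the members of each subunit was used as a score. On day 1 the large subunit score averaged 0.02 ± 0.14 (SD, n = 3) in Control, 0.01 ± 0.10 in NlecKO, 0.26 ± 0.07 in ApccKO and 0.51 ± 0.10 in ApccKO;NlecKO crypts, and the small subunit score 0.01 ± 0.11, 0.02 ± 0.09, 0.24 ± 0.06 and 0.49 ± 0.11. On day 2 the large subunit averaged -0.02 ± 0.09, 0.17 ± 0.16, 0.28 ± 0.07 and 0.57 ± 0.10 in the same order, and the small subunit -0.02 ± 0.09, 0.16 ± 0.17, 0.28 ± 0.06 and 0.56 ± 0.10. The scores get no test, since the members were chosen as a set. The large minus the small score stayed between -0.037 and 0.032 over all 24 libraries, less than the spread of either score within a group. In NlecKO on day 2 the third replicate stood at 0.356 and 0.354, while the other 2 libraries had large subunit scores of 0.066 and 0.09.

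**Figure D1:**
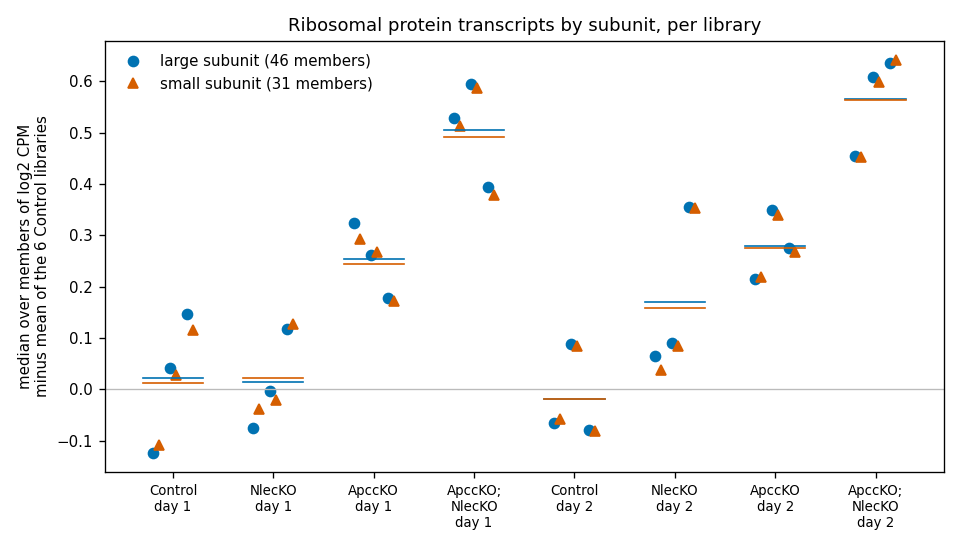
Median log2 level of the large and of the small subunit members in each of the 24 libraries, relative to Control, with 1 point per mouse and the group mean. Both subunits lie at like heights in every library, and the ApccKO;NlecKO groups average 0.51 and 0.57 for the large subunit.

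In summed CPM the same groups differed by amount and, slightly, by the balance of the subunits. The large subunit members summed to 19900 ± 1600 CPM in day 1 Control, 25800 ± 570 in ApccKO and 30600 ± 1800 in ApccKO;NlecKO crypts (SD, n = 3), and the small subunit members to 16300 ± 1200, 19700 ± 790 and 23300 ± 1900. These sums include Rps3a and Rplp0, whose rows share reads with copies. Without them the large subunit sums were 18300, 19900 and 21400 CPM in day 1 Control. They were 25000, 23700 and 23000 CPM in ApccKO and 29000, 30800 and 26200 CPM in ApccKO;NlecKO. The ratio of large to small over all members was 1.227 ± 0.0059 in day 1 Control, 1.313 ± 0.024 in ApccKO and 1.314 ± 0.039 in ApccKO;NlecKO. Relative to Control the ratio was thus 1.071 in both Apc-lost groups of day 1, and 1.035 and 1.056 on day 2. The shift was smaller without rows that share reads with copies. Without Rps3a and Rplp0 the relative ratio was 1.019 and 1.030 on day 1 and 1.008 and 1.021 on day 2. Over the 30 members that share less than 30% of their sequence words with any other row it was 0.995 and 1.002 on day 1 and 1.001 and 1.014 on day 2. In NlecKO crypts the relative ratio over all members was 1.006 on day 1 and 1.007 on day 2. Over those 30 members it was 1.008 ± 0.013 on day 1 and 1.023 ± 0.0064 on day 2 (SD, n = 3). The day 2 value was above those of the Apc-lost groups over the same members.

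Transcripts of both subunits were higher where Apc was lost, a difference that cannot be told apart from anything else that followed the animal codes. With Nle1 present, 33 of 77 members rose on day 1 (23 large, 10 small), against 24.7% of all tested genes, and 0 fell, against 25%. On day 2, 55 rose (32 large, 23 small), against 29.2%, and 0 fell, against 29.4%. With Nle1 lost, 72 rose on day 1 (44 large, 28 small), against 28.2%, and 0 fell, against 24.4%. On day 2, 69 rose (42 large, 27 small), against 25.6%, and 0 fell, against 22.2%. The median log2 change over the members was 0.23, 0.31, 0.49 and 0.42 in these 4 comparisons. Of the calls, 15 of 33, 30 of 55, 71 of 72 and 54 of 69 held in every fit with 1 library of the comparison left out. With Nle1 present, the day 1 count fell to 16 without Control replicate 1 and to 17 without ApccKO replicate 1, and rose to 46 without the third Control replicate. On day 2 it was 35 without the first and 36 without the third Control replicate. With Nle1 lost, the members that did not pass on day 1 were Rpl3, Rpl34, Rps13, Rps15a and Rps29. Comparisons of 1 day share groups with each other (ApccKO enters an Apc and an Nle1 comparison), so their counts are not independent.

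Other crypt genes changed alongside. The 10 enterocyte markers, which label the absorptive cells of the villus, summed to 11000 to 27200 CPM in day 1 Control and 2380 to 8050 CPM in day 1 ApccKO, and to 6980 to 26400 CPM against 1600 to 3130 CPM on day 2. With Nle1 lost they went from 26200 to 39500 down to 3530 to 12600 CPM on day 1 and from 22200 to 31900 down to 3060 to 5910 CPM on day 2. Of these 10 markers 7, 10, 8 and 10 were called lower in the 4 Apc comparisons. The 5 markers of dividing cells summed to 864 to 1200 CPM in day 1 Control and 1490 to 1520 CPM in day 1 ApccKO, and to 818 to 1100 against 1210 to 1360 CPM on day 2, with 4 and 3 of 5 called higher. With Nle1 lost 4 rose on day 1 and 0 on day 2. The 10 immune markers summed to 291 to 574 CPM in day 1 Control and 124 to 300 in day 1 ApccKO. Over the 4 Apc comparisons 7, 8, 6 and 7 of these 10 were called lower, as were 4, 4, 4 and 4 of 6 goblet cell markers. Lower too were 4, 5, 5 and 5 of 5 enteroendocrine and 1, 3, 2 and 3 of 3 tested tuft cell markers. Of 8 crypt epithelium markers 3, 3, 2 and 1 were lower and 1, 2, 2 and 2 higher. Of 6 Paneth cell markers 2, 2, 2 and 2 were higher. Among all tested genes 25, 29.4, 24.4 and 22.2% were lower and 24.7, 29.2, 28.2 and 25.6% higher. Of 6 crypt base stem cell markers 6, 5, 6 and 5 were called higher. With Nle1 lost, 1 stem cell marker was called lower on day 2 (-0.85) and 1 goblet cell marker higher on day 1. The part of these cell types in the ribosomal protein changes was not tested.

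Loss of Nle1 raised 41 of 77 members on day 2 where Apc was lost, and fewer in the other settings. With Apc intact, 0 of 77 members rose on day 1, against 0.87% of all genes, and 0 fell, against 1.61%. On that day 0 members had an unadjusted p under 0.05, against 1171 of 16552 genes higher and 1661 lower. DESeq2 called 0 members too. On day 2, 5 rose, against 7.33%, and 0 fell, against 8.26%. The 5 were Rpl9 (0.28 ± 0.09, adjusted p = 0.034), Rpl23 (0.31 ± 0.10, 0.035), Rps27a (0.31 ± 0.10, 0.046), Rps28 (0.31 ± 0.11, 0.049) and Rpl38 (0.38 ± 0.11, 0.027). That share is close to the background, and the count went to 0 without Control replicate 1 or 3, without NlecKO replicate 2 or 3, and in a fit of the compared libraries alone. With Apc lost, 11 rose on day 1 (6 large, 5 small), against 5.87%, and 0 fell, against 4.77%. The median over all 77 was 0.24, and 0 to 5 rose with 1 library left out, the 0 without the first ApccKO replicate. The largest of these were Rps18 (0.37 ± 0.11, adjusted p = 0.031), Rps12 (0.37 ± 0.11, 0.042) and Rpl13a (0.36, 0.046), and the smallest Rps7 at 0.28 and Rpl17 and Rpl19 at 0.31. On day 2 those 41 (24 large, 17 small) stood against 19.5%, with 0 lower against 15.4%, and with median 0.29 where all tested genes had 0.06. That count was 19, 22 and 26 without ApccKO;NlecKO replicate 3, ApccKO replicate 1 and ApccKO;NlecKO replicate 2. Rpl19, Rps7 and Rps27a were called in every fit tried. Cell type markers moved in the same comparison: 5 of 6 of crypt base stem cells and 5 of 5 of dividing cells fell. Markers called higher were 5 of 6 of goblet cells, 3 of 5 of enteroendocrine cells and 4 of 10 of immune cells. So were 4 of 7 of stroma and endothelium and 2 of 10 of enterocytes. In the other direction, 1 goblet cell marker and 1 enteroendocrine marker were called lower. Their part in the result was not tested. With library totals in place of TMM the 41 became 3, the 11 and the 5 became 0, and the members' day 2 median was 0.16 with all genes at -0.072.

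**Figure D2:**
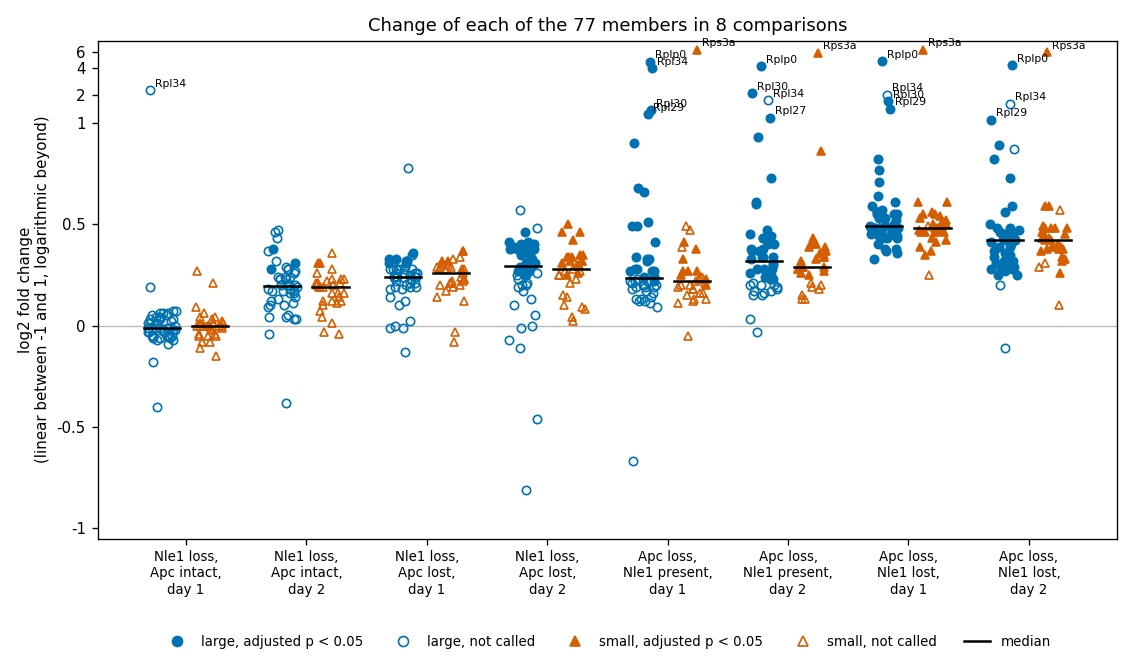
Log2 change of each of the 77 members in the 8 comparisons of 1 genotype change, large and small subunit apart, with called members marked. In Apc loss with Nle1 lost, 72 and 69 of 77 are called higher.

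The difference between the effects was tested directly. Nle1 loss with Apc lost against Nle1 loss with Apc intact passed for 0 of 77 members on day 1 (0.0121% of all genes). At an unadjusted p under 0.05, 17 members were higher and 0 lower, against 691 and 367 of 16552 genes. On day 2 this difference passed for 0 members, against 5.24%. There 2 members were higher and 1 lower at that unadjusted p, against 1936 and 1340 genes. DESeq2 called 0 members on both days. Day 2 against day 1 passed for 0 members in Control (against 0.163%), NlecKO (0.0362%), ApccKO (11.3%) and ApccKO;NlecKO crypts (6.49%). At an unadjusted p under 0.05, 0, 9, 3 and 1 members were higher, against 759, 933, 2030 and 1752 of 16552 genes. Lower were 2, 0, 2 and 0 members, against 927, 729, 2347 and 1623 genes. DESeq2 called 0 members in these groups except for ApccKO, where the deposited rows of Rplp0 and Rpl29 were lower on day 2. Both share sequence with copies. Summed with the rows sharing at least 5% of their words, neither was called in the edgeR fit. Rplp0 then changed by -0.53 (adjusted p = 0.1) and Rpl29 by -0.07 (0.67). From day 1 to day 2, the change of the Apc effect with Nle1 present passed for 0 members, against 1.13%. That of the Nle1 effect with Apc intact passed for 0 too, against 0.00604%. At the unadjusted p 1 and 7 members were higher and 0 lower, against 964 and 1242 genes higher and 1210 and 909 lower. DESeq2 called 0 members in both.

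The members by role are set beside the shares of all tested genes called higher, which were 24.7, 29.2, 28.2 and 25.6% in the 4 Apc comparisons (Nle1 present on day 1 and 2, Nle1 lost on day 1 and 2) and 0.87, 7.33, 5.87 and 19.5% in the 4 Nle1 comparisons (Apc intact on day 1 and 2, Apc lost on day 1 and 2). Rpl5 and Rpl11 form with the 5S RNA a particle that binds Mdm2 when assembly fails. The deposited Rpl5 row had 31.2, 37.7 and 42.2 CPM in day 1 Control and 51.8, 55.8 and 50.4 CPM in ApccKO, but most counts of its family lay in rows that share its sequence. Summed with the rows that share at least 5% of its words, it gave 707, 809 and 921 CPM in day 1 Control, 755, 758 and 846 in NlecKO, 970, 1020 and 928 in ApccKO and 1140, 1150 and 1080 in ApccKO;NlecKO. On day 2 the sums were 793, 827 and 778, then 804, 805 and 979, then 907, 879 and 978, then 1090, 1200 and 1190 CPM. The ApccKO;NlecKO libraries were the highest on both days, and the ApccKO and NlecKO libraries overlapped on day 2. With Apc loss the log2 change of the sum was 0.26 (adjusted p = 0.025) and 0.20 (0.066) with Nle1 present and 0.51 (0.00016) and 0.42 (0.001) with Nle1 lost, where the deposited row had 0.51 (2e-04), 0.45 (0.00032), 0.55 (8.3e-05) and 0.25 (0.033).

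With Nle1 loss the direction of Rpl5 depended on the copies. The sum changed by -0.05 and 0.11 with Apc intact and by 0.21 (adjusted p = 0.17) and 0.33 ± 0.09 (0.0098) with Apc lost, and the deposited row by -0.05, 0.10, -0.01 and -0.11, none called. Rpl11 measured 222, 228 and 238 CPM in day 1 Control, 280, 257 and 252 in ApccKO and 333, 365 and 287 in ApccKO;NlecKO, and those 3 groups did not overlap. Its change with Apc loss was 0.20 (adjusted p = 0.12) and 0.34 (0.0077) with Nle1 present and 0.55 (0.00022) and 0.40 (0.0035) with Nle1 lost.

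The stalk proteins, which recruit the elongation factors to the large subunit, rose in 3, 4, 4 and 4 of 4 cases over the 4 Apc comparisons, and in 0, 0, 0 and 1 over the 4 Nle1 comparisons, the last near the background. Rplp1 had 689, 768 and 663 CPM in day 2 Control, 727, 593 and 740 in NlecKO, 986, 1020 and 875 in ApccKO and 1050, 1210 and 1550 in ApccKO;NlecKO. The libraries with Apc lost were all higher, by 0.89 ± 0.13 with Nle1 lost (adjusted p = 2.6e-05). Rplp0, the stalk base, is taken up below with the copies.

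The 8 proteins around the tunnel exit had 3, 3, 8 and 7 members higher with Apc loss, the first 2 of these not far from the background, and 0, 0, 2 and 6 with Nle1 loss. Rpl19 is one of them. It measured 762, 687 and 675 CPM in day 1 ApccKO and 918, 904 and 806 in ApccKO;NlecKO, and on day 2 690, 635 and 711 against 884, 947 and 975 CPM, with no overlap on either day. Its change was 0.31 (adjusted p = 0.046, and 0.056 when summed with rows sharing 5% of its words) on day 1 and 0.46 ± 0.10 (0.00095) on day 2. Rpl22, whose paralogue is described further on, had 257, 248 and 224 CPM in day 1 ApccKO and 289, 292 and 246 in ApccKO;NlecKO, which overlapped. The 3 late-joining proteins Rpl10, Rpl24 and Rpl29, which are added when the large subunit is already in the cytoplasm, had 2, 3, 3 and 3 higher with Apc loss and 0, 0, 0 and 1 with Nle1 loss, medians of the latter being 0.03, 0.24, 0.22 and 0.40.

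In the small subunit the head, the lobe that carries the beak, had 3, 13, 13 and 13 of 14 members higher with Apc loss, and 0, 2, 3 and 9 with Nle1 loss. Rps12 had 592, 740 and 658 CPM in day 2 ApccKO and 754, 977 and 1010 in ApccKO;NlecKO, without overlap, a difference of 0.46 (adjusted p = 0.0032). Rps27a, made as a fusion with ubiquitin, had 410, 414 and 432 CPM against 531, 610 and 641 CPM in the same groups, the highest change called there at 0.50 ± 0.10 (0.00084). Rps7, also of the small subunit, followed at 737, 736 and 794 against 941, 1080 and 1100 CPM, or 0.46 ± 0.09 (0.00044). Among the lowest changes called in that comparison were Rpl35a at 0.25 and Rps20 at 0.26.

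Rps6, the classical S6 kinase substrate, measured 415, 531 and 519 CPM in day 1 Control, 506, 457 and 542 in NlecKO, 565, 602 and 512 in ApccKO and 702, 733 and 674 in ApccKO;NlecKO crypts. Only the last group stood clear of the others. The 5 platform members, which line the mRNA exit, had 2, 3, 5 and 4 higher with Apc loss and 0, 0, 1 and 2 with Nle1 loss, where 1 member more or less decides how a count stands to the background. Rps27 of the platform differed between mice of 1 group, with 203, 119 and 127 CPM in day 1 Control and 276, 253 and 215 in ApccKO;NlecKO, and summed with rows sharing its sequence with 251, 307 and 336 against 407, 390 and 376 CPM. Rps29 of the head, with 347, 418 and 393 CPM there and 442, 510 and 399 in ApccKO;NlecKO, overlapped between these groups.

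After Apc loss the members with the largest called changes were rows with near-identical copies. With Nle1 present on day 1 these were Rps3a (6.37 ± 0.19, adjusted p = 4.4e-15), Rplp0 (4.70 ± 0.24, 1.5e-10) and Rpl34 (4.01 ± 1.2, 0.011), and among the smallest were Rps20 at 0.20 and Rpl4 at 0.22. On day 2 Rps3a (5.92), Rplp0 (4.2) and Rpl30 (2.12, 0.0011) led, and Rpl24, Rpl35a and Rpl23 closed at 0.23, 0.23 and 0.24. With Nle1 lost, Rps3a (6.36 and 6.0), Rplp0 (4.76 and 4.32) and, after them, Rpl30 on day 1 (1.74, 0.0052) and Rpl29 on day 2 (1.09, 0.00071) had the largest changes. Among the smallest there were Rpl10 at 0.33 and Rpl21 at 0.36 on day 1 and Rpl35a at 0.25, Rpl5 at 0.25 and Rps16 at 0.26 on day 2. Of the 77 members, 47 shared at least 30% of their 31-base words with another row and 68 shared at least 5%, measured on GENCODE transcripts.

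Rps3a lies in GENCODE (GRCm38) at chr3:86137940-86142702 on the minus strand. Its copy Gm10119 lies at chr14:88123017-88123808 on the minus strand and differs from it at 4 of 792 coding bases (99.5% identity), and Gm9000 at chr13:108670603-108671397 on the plus strand differs at 9 (98.9%). Both are annotated as processed pseudogenes. The coding bases of Rpl3, at chr15:80077791-80091868 on the minus strand, differ from the pseudogene Rpl3-ps1, at chrX:13202571-13203780 on the plus strand, at 2 of 1209 positions (99.8%). The 60-base windows below show how few bases can separate their reads, with mismatches to the member in capitals.
Rps3a: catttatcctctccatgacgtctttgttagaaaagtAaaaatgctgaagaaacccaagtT
Gm10119: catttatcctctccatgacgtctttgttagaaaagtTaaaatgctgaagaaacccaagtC
Gm9000: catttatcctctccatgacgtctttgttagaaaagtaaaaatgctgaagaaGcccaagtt
Rpl3: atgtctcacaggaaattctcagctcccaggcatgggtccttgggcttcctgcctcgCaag
Rpl3-ps1: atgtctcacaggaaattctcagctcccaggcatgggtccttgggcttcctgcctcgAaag

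Counts moved between these rows with Apc status. Rps3a had 5.57 to 10.7 CPM in the 12 Apc-intact and 450 to 628 CPM in the 12 Apc-lost libraries. Gm10119 went the other way, from 471 to 606 down to 238 to 336 CPM, and Gm9000 from 167 to 236 down to 88.9 to 129 CPM. Summed over all rows that share at least 5% of its words, Rps3a came to 656 to 853 and 780 to 1090 CPM, and its change with Apc loss to 0.31, 0.23, 0.52 and 0.34 in the 4 comparisons (adjusted p = 0.0054, 0.029, 7.8e-05 and 0.0029). These changes lie near the median of the members, unlike that of the deposited row.

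Rplp0 did not balance in this way. It had 60.3 to 101 CPM in the Apc-intact and 1220 to 2720 CPM in the Apc-lost libraries, while its copy Gm8730, identical at 98.7% of 951 coding bases, had 68.8 to 115 and 0.32 to 75.7 CPM. Their sum with all sharing rows was 129 to 214 against 1280 to 2720 CPM, and its change was still 3.58, 3.10, 3.67 and 3.28 (adjusted p = 1.5e-09, 1.8e-09, 1.6e-09 and 4.8e-09). No row sharing at least 5% of the words made up the difference. Whether the counts of Rplp0 in Apc-intact libraries were assigned elsewhere was not tested. For Rplp0 and Rps3a too, Apc loss and anything else that followed the animal codes cannot be told apart.

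Rpl34 and Rpl29 switched between row and copy within some groups, and their rows also differed with Apc status. Rpl34 measured 8.64 to 191 CPM in the Apc-intact and 156 to 231 CPM in the Apc-lost libraries. Rpl29 measured 179 to 239 and 215 to 561 CPM. In day 1 NlecKO crypts Rpl34 measured 8.64, 134 and 9.99 CPM and Rpl34-ps1 248, 113 and 270 CPM, and their sum 257, 247 and 281 CPM. In day 2 ApccKO crypts Rpl29 measured 215, 240 and 453 CPM while Gm13841 measured 186, 233 and 0.186 CPM, with sums of 431, 499 and 482 CPM. These sums vary less between the mice of these groups than the rows do. Rpl30 did not balance with its copy: in day 1 ApccKO crypts it measured 245, 71.4 and 223 CPM, Gm12191 55.2, 103 and 47.4 CPM, and the sum over sharing rows 302, 179 and 275 CPM. For Rpl15 the sum differed more with Apc status than the row did. The row had 85.5, 95.5 and 107 CPM in day 1 Control and 155, 143 and 156 in ApccKO. Its sum had 149, 162 and 182 against 420, 406 and 550 CPM. With Apc loss and Nle1 present that sum changed by 1.48 on day 1 (adjusted p = 0.00013) and 1.94 on day 2 (4.3e-06). With Nle1 lost it changed by 1.58 on day 2 (6.9e-05). Summed at 5%, 37, 57, 76 and 71 members were called higher in the 4 Apc comparisons and 0 lower. In the 4 Nle1 comparisons 0, 5, 8 and 47 were called higher and 1, 1, 0 and 2 lower. With rows as deposited, 24.7, 29.2, 28.2 and 25.6% of all genes were higher in the Apc comparisons. In the Nle1 comparisons 0.87, 7.33, 5.87 and 19.5% were higher and 1.61, 8.26, 4.77 and 15.4% lower. Rps15a also varied within groups, at 60.4, 190 and 82.3 CPM in day 1 Control, and no row shares 5% of its words. Its deposited TPM varied less in the same libraries, at 324, 392 and 364 TPM.

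**Figure D3:**
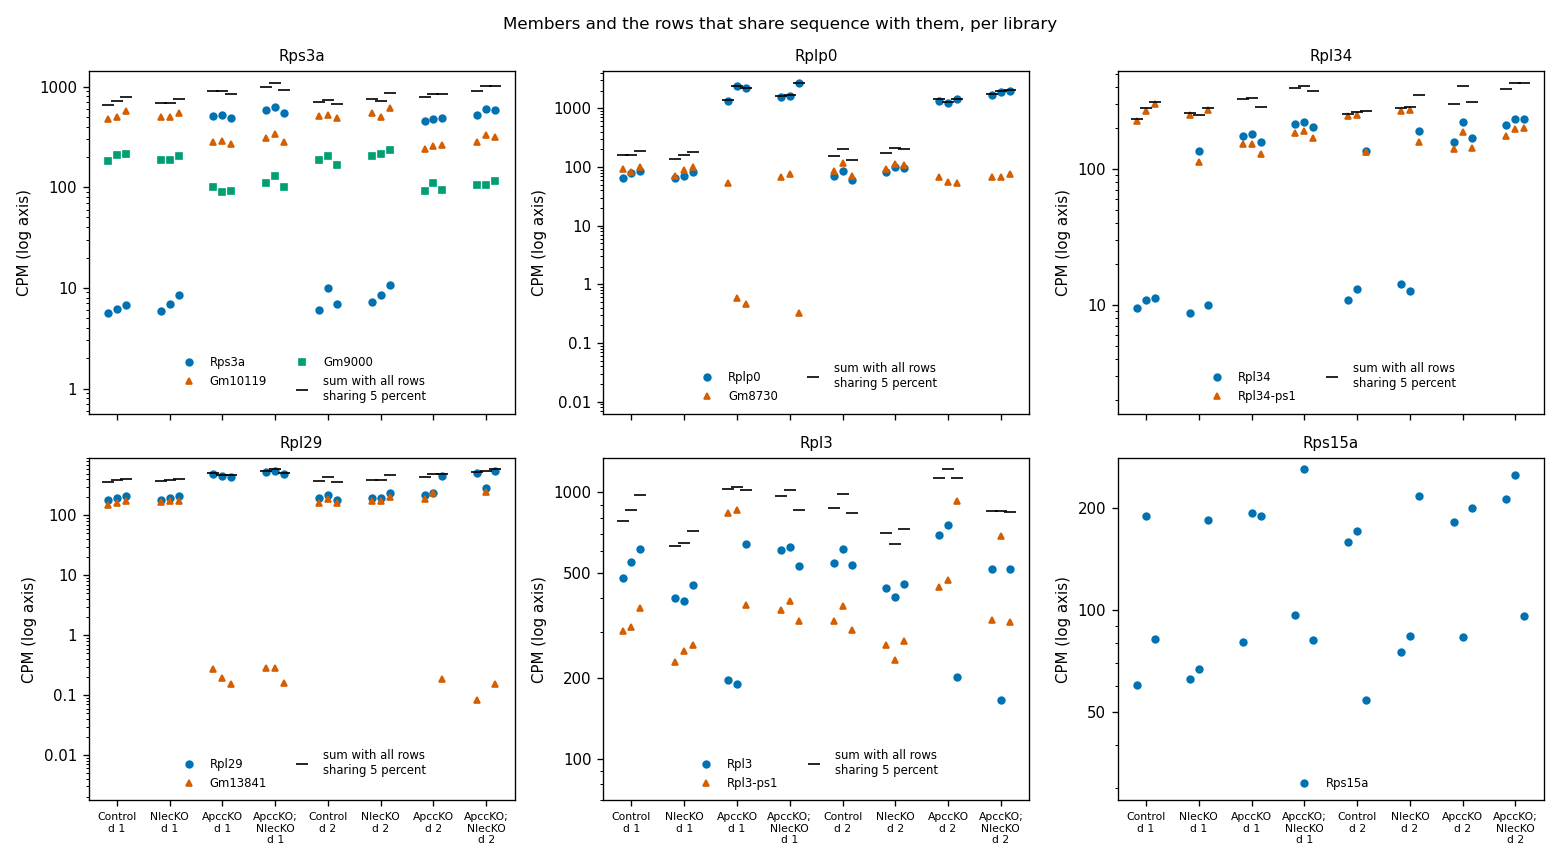
CPM on a log axis, by group, of Rps3a, Rplp0, Rpl34, Rpl29, Rpl3 and Rps15a, of their copies and of the sum with all rows sharing 5% of words (dashes), with 1 point per library. Rps3a lies at 5.57 to 10.7 CPM with Apc intact and at 450 to 628 CPM with Apc lost, opposite to Gm10119.

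Once its copies were summed in, Rpl3 fell with Nle1 loss in 3 of the 4 comparisons. Rpl3 binds early to the large subunit RNA, near the catalytic centre. The summed rows gave 773, 856 and 978 CPM in day 1 Control and 627, 642 and 710 CPM in NlecKO, and 871, 985 and 836 against 698, 639 and 731 CPM on day 2, with no overlap on either day. With Apc lost they gave 1040, 1060 and 1020 CPM against 977, 1020 and 863 CPM on day 1, which met at 1020 CPM, and 1130, 1220 and 1130 against 850, 852 and 845 CPM on day 2, which did not overlap. The log2 changes were -0.40 ± 0.09 (adjusted p = 0.025), -0.38 ± 0.09 (0.0066), -0.13 ± 0.09 (0.41) and -0.45 ± 0.09 (0.00058). Both day 2 calls held in 6 of 6 fits with 1 library left out, and the day 1 call with Apc intact in 1 of 6, with adjusted p from 0.0074 to 0.21. As deposited the row passed in none of the 4, with a standard error of 0.47. Summing at 30% gave the same values to within 0.01 on the log2 scale. Where Apc was lost the sum was higher by 0.26, 0.37, 0.53 and 0.30 (adjusted p = 0.02, 0.0013, 8.1e-05 and 0.009). Rpl10a, summed alike, was also lower with Nle1 loss on day 2 with Apc lost, by -0.23 ± 0.08 (0.036), but in 0 of 6 such fits. These sums were examined after the rows had been seen.

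The paralogues of members were read from a list of 13 genes, 7 of which could be tested. Rpl22l1, the paralogue of Rpl22, had 83.6, 85.9 and 96.1 CPM in day 1 Control and 53.7, 40.9 and 42 in NlecKO, and 115, 119 and 105 in ApccKO against 69.6, 51.2 and 50 in ApccKO;NlecKO. On day 2 it had 93, 96.1 and 92.4 against 48.8, 43.4 and 45.2 CPM, and 108, 122 and 113 against 52.2, 48.5 and 46.9 CPM. All 12 libraries with Nle1 present (83.6 to 122 CPM) were above all 12 with Nle1 lost (40.9 to 69.6 CPM). The log2 changes were -0.96 ± 0.11 (adjusted p = 0.00026), -1.04 ± 0.11 (1.2e-05), -0.99 ± 0.11 (1.9e-05) and -1.22 ± 0.11 (2.8e-07). The calls held with each library left out, and in a fit of the compared libraries alone the first had an adjusted p of 0.051.

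Rps27l, the paralogue of Rps27 and a known target of p53, went the other way. It had 135, 167 and 160 CPM in day 1 Control and 192, 184 and 226 in NlecKO, and 127, 128 and 138 against 201, 285 and 316 CPM on day 2. With Apc lost it had 167, 167 and 154 against 308, 282 and 290 CPM on day 1 and 136, 158 and 129 against 308, 329 and 367 CPM on day 2. The 12 libraries with Nle1 lost were all above the other 12. The changes were 0.38 (adjusted p = 0.12), 1.03 ± 0.13 (3.6e-05), 0.85 ± 0.13 (0.00037) and 1.25 ± 0.13 (8.1e-07). The third no longer passed when 3 day 1 libraries with Apc lost (ApccKO replicates 2 and 3, ApccKO;NlecKO replicate 3) were left out, which leaves 1 ApccKO library there. In these 3 the Rplp0 row had 2350, 2230 and 2720 CPM. It had 1310, 1560 and 1610 CPM in the other day 1 libraries with Apc lost. Rpl7l1 rose on day 2 by 0.39 ± 0.09 (0.0063) with Apc intact and 0.36 ± 0.09 (0.0045) with Apc lost, and its day 1 changes of -0.07 and 0.11 did not pass. The change of its Nle1 effect from day to day was not called with Apc intact and not tested with Apc lost. Fau, which encodes a fusion of a ubiquitin-like protein with a small subunit protein, rose by 0.62 ± 0.14 (0.0015) in the last.

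**Figure D4:**
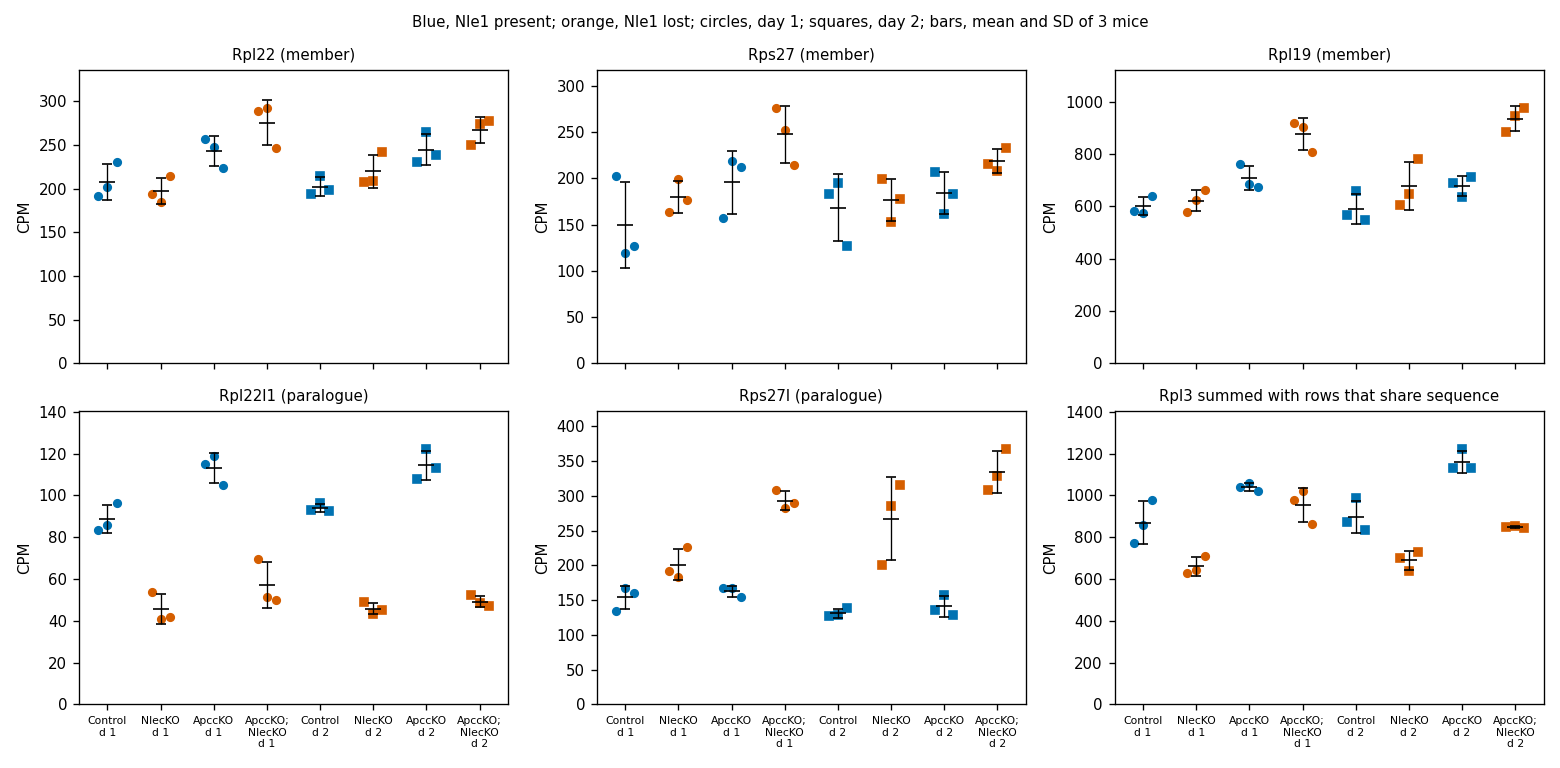
CPM of Rpl22, Rps27, Rpl19, Rpl22l1, Rps27l and the summed Rpl3 rows in each library by group, with Nle1 present in blue, Nle1 lost in orange, day 1 as circles, day 2 as squares and bars for the mean and SD of 3 mice. Rpl22l1 falls from 83.6 to 122 CPM with Nle1 present to 40.9 to 69.6 CPM with Nle1 lost, and Rps27l lies higher in all libraries with Nle1 lost.

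Other genes tied to these proteins were read from lists chosen with earlier results of these data known. Of 16 other mRNAs with a TOP tract, 0, 1, 6 and 6 rose with Nle1 loss and 0, 0, 0 and 2 fell. The order is Apc intact on day 1 and 2, then Apc lost on day 1 and 2. Of all tested genes 0.87, 7.33, 5.87 and 19.5% rose there and 1.61, 8.26, 4.77 and 15.4% fell. With Apc lost on day 2 the elongation factor Eef2 rose by 0.37, Eef1b2 by 0.42 and Tpt1 by 0.46, while Hnrnpa1 fell by 0.51. With Apc loss 11, 9, 15 and 13 rose, against 24.7, 29.2, 28.2 and 25.6% of all genes. The histone chaperone Nap1l1 led with Nle1 present (1.51 on day 1 and 1.75 on day 2). Of 13 chaperones and importers of ribosomal proteins, 0, 2, 0 and 2 rose with Nle1 loss, the 2 being Ltv1, which acts on the small subunit, and Pdcd2, a chaperone of Rps2, while 0, 0, 1 and 2 fell. On day 2 with Apc lost these shares lie near the 19.5% higher and 15.4% lower of all genes. With Apc loss 11, 11, 12 and 9 rose, against 24.7, 29.2, 28.2 and 25.6% of all genes. Of 7 genes that watch over free ribosomal proteins, 1, 1, 1 and 3 rose with Nle1 loss and 2, 2, 4 and 7 with Apc loss, and 0 fell. Mdm2, which the 5S particle binds, rose with Nle1 loss by 0.87 (adjusted p = 0.017), 1.55 (2e-05), 1.48 (4.8e-05) and 2.32 (5.7e-08). Of 15 genes that regulate TOP mRNAs (16 rows), 0, 0, 0 and 3 rose and 0, 3, 2 and 2 fell with Nle1 loss, and 5, 5, 5 and 4 rose and 3, 4, 3 and 3 fell with Apc loss, shares close to those of all genes on day 2 with Apc lost and in the Apc comparisons. The falls with Apc intact on day 2 were Tsc1 (-0.37) and Tsc2 (-0.27), which restrain mTOR, and Eif4ebp2 (-0.41). Trp53, which encodes p53, rose with Apc loss by 0.74, 0.71, 0.76 and 0.57. Myc, of the TOP list, rose by 1.43 with Apc loss on day 1 with Nle1 present. The markers of dividing cells fell in 2, 4, 4 and 5 of 5 cases with Nle1 loss, and their sum was 864 to 1200 against 592 to 720 CPM on day 1 with Apc intact and 1210 to 1360 against 572 to 673 CPM on day 2 with Apc lost. Its part in these changes was not tested.

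Levels of members relative to each other were read from the deposited TPM, which are per length. Over the 24 libraries the mean of the large subunit members spanned 50.9 TPM (Rpl5) to 5210 TPM (Rpl41) with a median of 1250 TPM, and of the small subunit members 53.9 TPM (Rps13) to 3700 TPM (Rps26) with a median of 1810 TPM. Highest after Rpl41 came Rpl13a (4440 TPM) and Rplp1 (3940 TPM), and in the small subunit Rps29 and Rps14 after Rps26. Lowest were Rpl5, Rpl27a and Rpl27, and Rps13, Rps15a and Rps3a. Of the members, 44 of 46 and 30 of 31 exceeded 100 TPM. The low rows include members with copies, Rpl5 and Rps3a among them, whose level is uncertain. Most members kept to the common pattern of their subunit: the deviation of a member from it had an SD of at most 0.2 log2 units over the libraries for 65 members and a median SD of 0.077. The other 12 were Rps3a (2.976), Rplp0 (2.125), Rpl34 (1.856), Rpl30 (0.799), Rpl3 (0.687), Rps15a (0.677), Rpl29 (0.479), Rpl27, Rps13, Rps27, Rpl15 and Rpl10a.

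**Figure D5:**
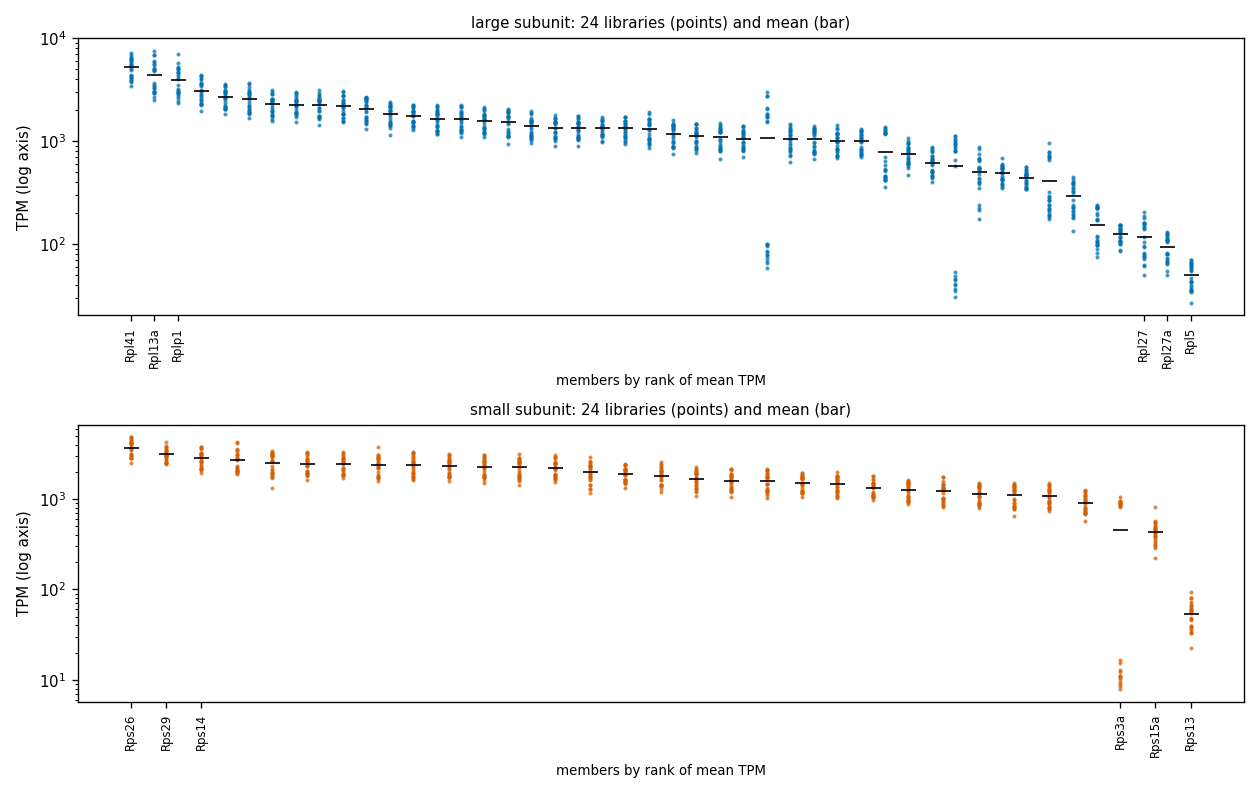
TPM of each member on a log axis, by rank within the large and the small subunit, with 1 point per library, a bar for the mean of 24 libraries and names for the 3 highest and 3 lowest members. Rpl41 (5210 TPM) and Rps26 (3700 TPM) are highest. Rpl5 (50.9 TPM) and Rps13 (53.9 TPM) are lowest as deposited, and both have copies that share their sequence.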

How the data were processed

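Crypt poly(A) RNA of 24 mice was sequenced. The deposited estimated counts and the TPM values (transcript levels per length) carry no statement of how they were made beyond the submitters' processing notes, which name kallisto 0.43, mm9, DESeq2 and DESeq. The authors' estimated counts per gene were rounded to whole numbers here. Rows were kept by filterByExpr with a minimum count of 10, scaled by TMM, and fitted with edgeR 4.0.16 (quasi-likelihood, robust, 1 mean per group, prior count 2, limma 3.58.1, R 4.3.3). No value column was left unmapped. The members and lists were chosen with earlier results of these data known. Genes are named by role, by the 3 highest and 3 lowest called changes, by TPM rank, by shared words or from the lists; some members are counted but not reported by name. Shared sequence was measured as 31-base words of GENCODE M21 transcripts (GRCm38), which is not the mm9 of the notes; 32897 of 37620 rows (87.4%) had a transcript there. The fit was tested on simulated data. Alternatives were DESeq2 1.42.0, other scalings and filters, a replicate block, fewer libraries and summed copies. The labels give separate mice per group. The p-values rest on the spread between mice within groups, estimated over all 8 groups of 3 mice in 1 fit. Depth was 17860000 to 26470000 estimated counts per library.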

Additional observations from a re-analysis of the deposited data

Results flagged for a closer look

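At a threshold of 0.05 the effect of Nle1 loss on day 2 differed between Apc-lost and Apc-intact crypts, by the interaction term of the edgeR fit, for 4 of 59 listed genes other than members and for 0 of 77 members. The former share is close to the 5.24% of all tested genes called. The interaction of Nap1l1, a histone chaperone with a TOP mRNA, was -1.02 (adjusted p = 0.029), and that of Hnrnpa1, an RNA-binding protein, -0.59 (0.033). That of Tsc2 was 0.35 (0.047) and that of Tsc1 0.32 (0.046), the partners that restrain mTOR. No group of 3 mice is large enough for a test of single libraries.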

How the results depend on the processing

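The counts of called members depended on scaling and on single libraries, and no called member of the deposited rows changed direction. With library totals in place of TMM, where the all-gene medians ran from -0.109 to 0.23 (main -0.006 to 0.056) over the 8 comparisons of 1 genotype change, the counts were 0 (Nle1 loss with Apc intact, day 2; main 5), 0 (Apc lost, day 1; main 11), 3 (Apc lost, day 2; main 41) and 57 (Apc loss with Nle1 present, day 1; main 33). With no filter the first 2 of these were 1 and 2, with a filter of 2 CPM in 3 libraries the first was 16, with DESeq2 they were 13 and 18, and with only the compared libraries 0 and 0. DESeq2 called 2 lower from day 1 to day 2 in ApccKO crypts, the deposited rows of Rplp0 and Rpl29. Without day 1 ApccKO replicates 2 and 3 and ApccKO;NlecKO replicate 3, 1 ApccKO library was left on that day. Fewer members then passed on day 1 for Nle1 loss with Apc lost and for Apc loss with Nle1 present. Their medians were 0.23 (main 0.24) and 0.31 (main 0.23). The members' medians changed sign for day 2 against day 1 in ApccKO (0.03 to -0.04) and for the change of the Apc effect from day to day (0.06 to -0.01). Summing copies at 30% or 5% gave 1 (Rpl3, lower) on day 1 for the loss of Nle1 with Apc intact. The subunit ratio relative to Control became 1.019, 1.030, 1.008 and 1.021 without Rps3a and Rplp0, 0.995 (now below Control), 1.002, 1.001 and 1.014 without the sharing members (1.023 in NlecKO on day 2), and 1.050 in day 2 ApccKO from TPM. The cause was not tested.

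Leaving out 1 library at a time, the counts ranged from 0 to 10 (main 5), 0 to 5 (11), 19 to 48 (41), 16 to 46 (33), 35 to 62 (55), 71 to 73 (72), 55 to 72 (69), and 0 to 1 for day 2 against day 1 in ApccKO; in the other comparisons it stayed at 0.

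Replicate numbers did not pair the mice: correlations of same-numbered residuals ran from -0.26 to 0.26. With the replicate block the counts were 0, 5, 11, 45, 34, 55, 72 and 69 in the 8 comparisons of 1 genotype change, and 0 elsewhere.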
